A study of Mus musculus with 2 samples.

Results

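Cell cycle genes were followed through the cell types of the mouse colon in droplet single-cell RNA sequencing of a library from THC-treated mice and a library from vehicle-treated mice. The set held 36 of the 31053 genes listed, chosen by symbol, and all 36 were found in both libraries. It was divided into 12 genes of S phase, in which DNA is copied (Pcna, Mcm2 to Mcm7, Tyms, Rrm1, Rrm2, Dut and Gmnn), and 18 genes of G2 phase and mitosis (Mki67, Top2a, Birc5, Cdk1, Ccna2, Ccnb1, Ccnb2, Cenpa, Cenpe, Cenpf, Ube2c, Cdc20, Aurka, Aurkb, Plk1, Tpx2, Nusap1 and Cks2), with 6 broader genes that dividing cells use heavily but resting cells express too (Stmn1, Tubb5, Tuba1b, H2afz, H2afx and Hmgb2). Both libraries came from wild-type C57BL/6 mice. The treated mice received Δ9-tetrahydrocannabinol (THC, the main psychoactive compound of cannabis) at 10 mg/kg and the controls the vehicle. The sources used here do not give the number of mice behind a library, their age, or the route and schedule of dosing. Epithelium was loosened with EDTA, the rest of the colon was digested with collagenase D, Dispase and DNAse, and lamina propria cells were enriched on Percoll, so the epithelial cells described are those that remained in that preparation.

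A cell that divides passes from G1 through S and G2 to mitosis. Cyclin-dependent kinases drive these steps with cyclin partners that are made and destroyed in turn. S phase genes build the replication machinery and the nucleotides for it, and are switched on by E2F transcription factors. Genes of G2 and mitosis build the spindle, the kinetochores and the chromosomes that are pulled apart, and are switched on later through the MuvB complex with B-Myb and FoxM1 and through NF-Y. In the colon the epithelium is renewed from the crypt base, where undifferentiated stem and transit-amplifying cells divide and move upward to become absorptive colonocytes and goblet cells. Most stromal and muscle cells of the adult gut wall divide rarely, while B cells divide in germinal centres of the gut lymphoid follicles.

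The control sequences of the later genes are shown because the S and G2/M sets are set apart by them in textbook accounts. The promoter table of RefSeq for build GRCm38.p6 held 29 of the 36 genes, and the 250 bases ahead of each start site were searched on both strands. The cell cycle genes homology region, searched as TTTGAA, is a docking site of the MuvB complex and lay ahead of 6 of the 15 matched G2/M genes (40%), 1 of 11 S promoters (9.09%; 10 genes, Mcm7 with more than 1 start) and 1 of 4 promoters of the broad set, against 16.0% of all 32851 promoters. CCAAT, the NF-Y box, lay ahead of 13 of 15 G2/M genes (86.7%), 9 of 11 S promoters (81.8%) and 33.8% of all promoters. Both words together were in 40% of the G2/M promoters and in 5.55% of all. An E2F word (TTTGGCGC, TTTCGCGC, TTTCCCGC or TTTGCCGC) lay in 3 of 11 S promoters (27.3%), 1 of 15 G2/M promoters (6.67%) and 1.86% of all. A match is a match of letters, and no factor was measured here. The display below favours G2/M promoters with TTTGAA, and those of Plk1 and Birc5, also named below, hold none. The 100 bases that end just ahead of the start site are given for 5 G2/M genes and for 2 S genes, 5′ to 3′ on the strand of the gene, with these words, on either strand, in capitals:
Cdk1, chr10:69352913-69353012, strand -: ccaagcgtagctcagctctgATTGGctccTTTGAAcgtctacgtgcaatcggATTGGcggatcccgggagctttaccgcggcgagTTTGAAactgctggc
Cdc20, chr4:118437344-118437443, strand -: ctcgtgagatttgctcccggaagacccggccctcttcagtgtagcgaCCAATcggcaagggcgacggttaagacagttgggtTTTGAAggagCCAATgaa
Ube2c, chr2:164769829-164769928, strand +: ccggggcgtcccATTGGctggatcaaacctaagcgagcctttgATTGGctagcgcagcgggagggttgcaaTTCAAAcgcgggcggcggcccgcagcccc
Mki67, chr7:135716380-135716479, strand -: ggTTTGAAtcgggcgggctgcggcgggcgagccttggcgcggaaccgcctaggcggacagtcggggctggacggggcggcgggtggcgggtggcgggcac
Cenpa, chr5:30666786-30666885, strand +: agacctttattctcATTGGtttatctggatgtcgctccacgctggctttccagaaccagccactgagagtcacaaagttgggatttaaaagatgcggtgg
Mcm6, chr1:128359706-128359805, strand -: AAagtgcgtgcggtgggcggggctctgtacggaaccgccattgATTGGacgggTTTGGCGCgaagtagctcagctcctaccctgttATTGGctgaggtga
Pcna, chr2:132253181-132253280, strand -: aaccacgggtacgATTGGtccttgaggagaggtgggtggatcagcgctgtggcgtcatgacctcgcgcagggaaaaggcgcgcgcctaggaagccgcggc
Cdk1 carries the homology region beside NF-Y boxes, Cdc20 and Ube2c carry both, and the Mki67 window holds TTTGAA alone. The Cenpa and Pcna windows hold a CCAAT box and no TTTGAA. Mcm6 has an E2F word between its CCAAT boxes, and the capitals at its very start end another E2F word that begins upstream.

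Levels are counts of unique molecular identifiers (UMIs), each of which stands for 1 RNA molecule caught at its 5′ end, so that a level does not grow with the length of the gene. The level of a set in a class is its number of UMIs per 10000 UMIs of the class, and the level of a gene is given in CPM, which is 100 times its UMIs per 10000. After filters on UMIs, genes and mitochondrial share, 435 THC and 702 vehicle cells remained, with medians of 9046 and 7536.5 UMIs, and no cell barcode was shared between the libraries. The THC matrix listed every possible barcode and the vehicle matrix only called cells, and the mitochondrial limit removed 192 and 208 barcodes. Cells were classed by canonical markers after clustering without the cell cycle genes, so "-like" is meant with every class name, and 1 cluster of 15 THC and 18 vehicle cells led by Hand1 stayed unnamed. There was 1 library per treatment, so no difference has a replicate check and no test was made. All intervals are 95% intervals that cover counting error only, not the spread between mice. Those of levels and ratios treat UMIs as independent, so they leave out the spread between cells too. A treatment difference cannot be told apart from a difference between libraries. Tubulin, histone and Hmgb genes have close relatives, and the treatment of reads shared with them is not known here.

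Among the 3 larger epithelial classes the G2/M genes were highest in the undifferentiated class, lower in colonocytes and lowest in goblet cells. The few enteroendocrine cells (5 THC and 4 vehicle) held less than goblet cells, 0.95 and 0.17 G2/M UMIs per 10000. Undifferentiated cells held 17.99 G2/M UMIs per 10000 (16.8 to 19.3) in the THC library and 10.6 (9.81 to 11.4) in the vehicle library. Colonocytes held 8.07 and 6.41, and goblet cells 3.18 and 1.56. These intervals, which leave out the spread between cells, did not overlap between neighbouring classes within a library. The S set followed the same order in the vehicle library, at 6.33, 3.57 and 1.69 per 10000. In the THC library it was 6.81 in undifferentiated cells, and colonocytes at 2.71 (2.44 to 2.99) and goblet cells at 2.65 (2.30 to 3.03) could not be ordered. Lymphoid classes reached epithelial G2/M levels in 1 library each: vehicle B cells held 10.0 per 10000, above vehicle colonocytes, and THC T cells 6.58, above THC goblet cells.

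In stroma S transcript was found where G2/M transcript was scarce, at levels that ranged from above to below those of goblet cells. Endothelial cells held 4.02 (2.86 to 5.49) and 2.80 (2.10 to 3.66) S UMIs per 10000, above goblet cells in the vehicle library and with overlapping intervals in the THC library. They held 0.21 and 0.58 G2/M UMIs, and none of the 17 THC and 32 vehicle endothelial cells had a UMI of Mki67, the protein that coats mitotic chromosomes. Fibroblasts held 1.56 and 1.64 S UMIs and 0.38 and 1.73 G2/M UMIs per 10000. Their S interval lay below that of goblet cells in the THC library and overlapped it in the vehicle library. Smooth muscle cells held 0.79 and 1.07 S UMIs and 0.20 and 2.50 G2/M UMIs, with S intervals below those of goblet cells in both libraries. The vehicle G2/M values of fibroblasts and smooth muscle rested on 1 cell each, described below. The 6 THC dendritic cells had no G2/M UMI among 75911 UMIs. Near-empty THC barcodes, under 100 UMIs each, held 4.55 G2/M and 2.28 S UMIs per 10000, with intervals of 4.10 to 5.04 and 1.96 to 2.63. That G2/M value lies above those of THC goblet cells (3.18), B cells (1.98), endothelial cells, fibroblasts and smooth muscle, and the S interval overlaps those of THC goblet cells and colonocytes. Its part in the levels of these classes was not tested.

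**Figure D1:**
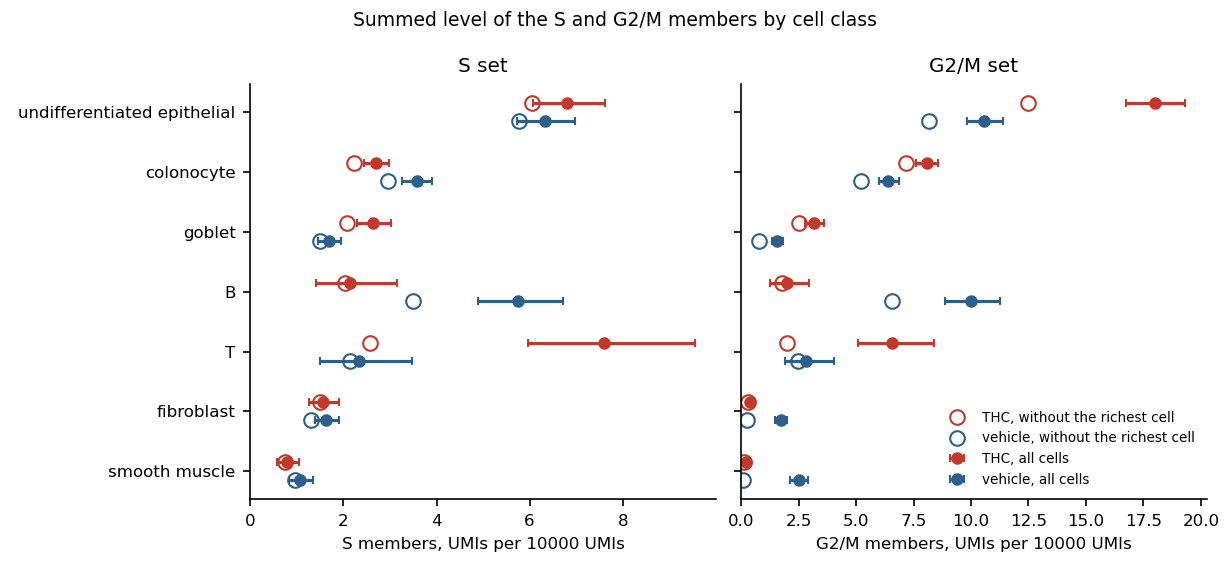
Summed level of the 12 S members (left) and 18 G2/M members (right) per 10000 UMIs in 7 cell classes. Filled points are all cells of a library with the exact Poisson 95% interval, open points leave out the cell richest in the members. Undifferentiated cells lie highest in both libraries (G2/M 17.99 and 10.6), and the open points of vehicle fibroblasts and smooth muscle fall to 0.27 and 0.10.

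The most abundant members differed in how closely they kept to the epithelium. Mki67 had 75 UMIs in THC and 80 in vehicle undifferentiated cells (170 and 121 CPM), 167 and 109 in colonocytes (116 and 79.7 CPM) and 22 and 21 in goblet cells (28.0 and 19.2 CPM). Ube2c, which hands ubiquitin to the anaphase-promoting complex, was at 301 and 175 CPM in undifferentiated cells, 95.7 and 83.3 in colonocytes and 40.7 and 31.1 in goblet cells. Both genes were thus several times lower in goblet than in undifferentiated cells of the same library. Cks2, a small subunit of the cyclin-dependent kinases, was less restricted: 163 and 112 CPM in undifferentiated cells, 127 and 100.1 in colonocytes, and 26.3 and 36.1 in fibroblasts. It was the only one of the 3 with UMIs in more than 1 fibroblast, found in 12.05% of THC and 11.03% of vehicle fibroblasts.

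Among S genes, Pcna, the sliding clamp of DNA polymerase, was spread over many classes: 83.7 and 60.7 CPM in undifferentiated cells, 40.2 and 51.2 in colonocytes, 82.4 and 95.1 in endothelial cells and 54.3 and 36.1 in fibroblasts. Dut, which removes dUTP, was at 83.7 and 88.0 CPM in undifferentiated cells and at 47.7 and 54.2 in fibroblasts. Tyms, which makes thymidylate, was at 79.2 and 92.6 CPM in undifferentiated cells, 43.7 and 57.0 in colonocytes, and 3.29 and 11.4 in fibroblasts. It was at 72.1 and 21.1 CPM in endothelial cells, from 7 and 4 UMIs. The 3 most abundant broad genes were not highest in the epithelium. H2afz, a replication-independent histone variant, was highest in innate lymphoid or NK cells (3246 and 3566 CPM; 4 and 9 cells), dendritic cells (2859 and 2308) and T cells (2076 and 1829), above undifferentiated epithelium (957 and 633). Tubb5 (β-tubulin) was at 617 and 331 CPM in T cells and 391 and 315 in smooth muscle, against 380 and 250.4 in undifferentiated epithelium. Hmgb2, a chromatin protein, was at 863 and 535 CPM in T cells and 654 and 419 in undifferentiated epithelium.

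Cells with a cell cycle signal were counted after each cell was thinned to 1000 UMIs, so that depth is equal. A cell had G2/M or S signal when at least 2 members of that set were left with a UMI. The thinning was 1 random draw, and the intervals leave out the spread between draws. G2/M signal was present in 21 of 161 THC epithelial cells (13.0%; 8.26 to 19.2) and 29 of 245 vehicle epithelial cells (11.8%; 8.07 to 16.6). In cells outside the epithelium it was present in 4 of 274 (1.46%; 0.40 to 3.695) and 7 of 457 (1.53%; 0.62 to 3.13), at medians of 6989 and 6189 UMIs. Endothelial cells, taken as the background class, gave 0 of 17 and 0 of 32, which allows shares of up to 17.6% and 9.38%. The epithelial shares of the libraries thus overlapped within their intervals, and both exceeded the share outside the epithelium.

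Undifferentiated cells had the highest share, 8 of 30 in the THC library (26.7%; 12.3 to 45.9) and 20 of 76 in the vehicle library (26.3%; 16.9 to 37.7). Colonocytes followed with 11 of 72 (15.3%; 7.88 to 25.7) and 7 of 79 (8.86%; 3.64 to 17.4), and goblet cells with 2 of 54 (3.704%) and 2 of 86 (2.33%). S signal was present in 6 of 30 (20%) and 11 of 76 (14.5%) undifferentiated cells. In colonocytes it was present in 1 of 72 THC cells (1.39%; 0.04 to 7.50) and 7 of 79 vehicle cells (8.86%; 3.64 to 17.4). No class had shares whose intervals were apart between the libraries.

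Without thinning, and with at least 3 members required, the picture differed between libraries. G2/M signal then stood at 1.46% and 1.97% of cells outside the epithelium, 34.2% of THC epithelial cells (26.9 to 42.0) and 19.6% of vehicle epithelial cells (14.8 to 25.1), S signal at 44.7% and 31.8%. By class, G2/M signal was at 46.7% and 35.5% of undifferentiated cells, 38.9% and 20.3% of colonocytes and 22.2% and 5.81% of goblet cells. Depth differed too: THC epithelial cells had a median of 17314 UMIs and vehicle ones 12873. By class the medians were 14609 and 4166.5 UMIs in undifferentiated cells, 20024 and 17271 in colonocytes and 13059 and 11821.5 in goblet cells. Epithelial cells with any signal had medians of 20593 (THC) and 17683 (vehicle) against 12275 and 10921 for cells with neither. The part of depth in the differences between libraries was not tested. By these unthinned calls, 43 THC epithelial cells had both signals, 29 S alone, 12 G2/M alone and 77 neither. The vehicle counts were 31, 47, 17 and 150.

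**Figure D2:**
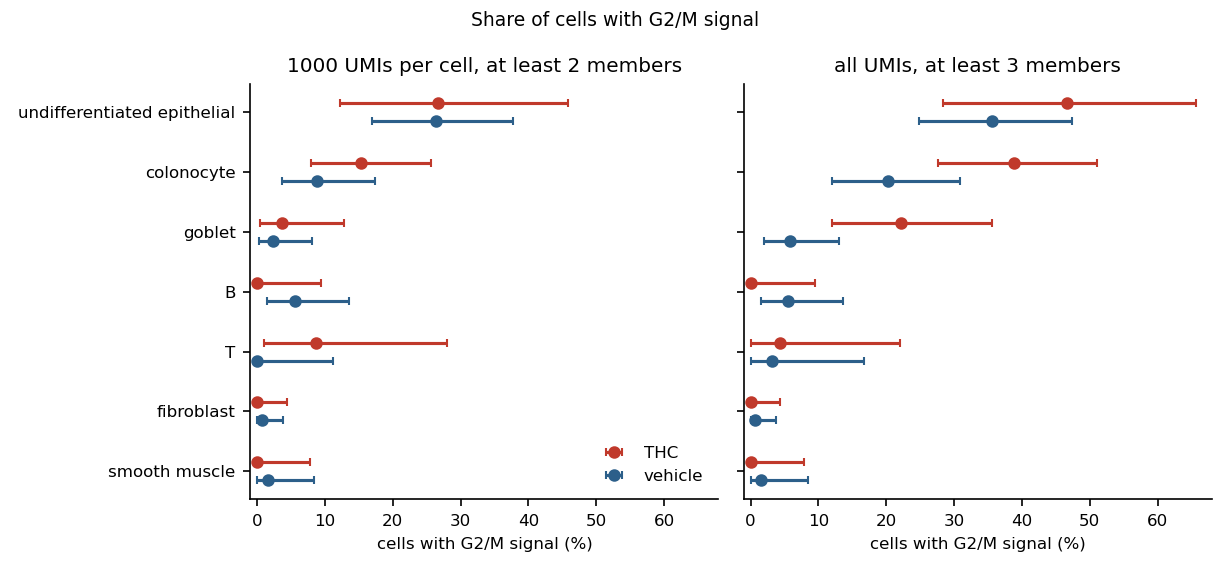
Percent of cells with G2/M signal in 7 classes, at 1000 UMIs per cell with at least 2 members (left) and at all UMIs with at least 3 members (right). Points are libraries and bars exact binomial 95% intervals. At equal depth undifferentiated cells stand at 26.7% and 26.3%, and without thinning at 46.7% and 35.5%.

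Most G2/M transcript was held by few cells. The 21 THC and 29 vehicle epithelial cells with G2/M signal held 69.3% and 77.7% of all epithelial G2/M UMIs, and the 10 richest cells 60.2% and 67.3%. No G2/M UMI was found in 34.8% of THC and 46.9% of vehicle epithelial cells. The median epithelial cell held 0.94 (THC) and 0.47 (vehicle) G2/M UMIs per 10000, while the highest held 82.7 and 76.0.

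**Figure D3:**
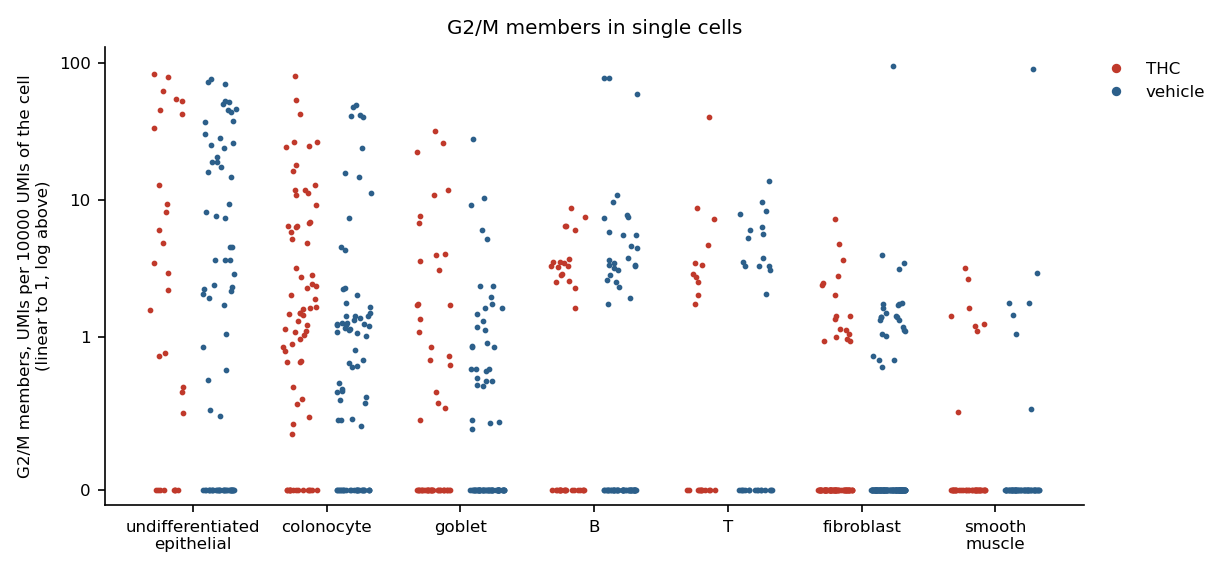
G2/M members per 10000 UMIs in each cell (linear up to 1, log above), with 1 point per cell, THC in red and vehicle in blue, spread sideways at random. Cells above 10 lie mainly in the undifferentiated and colonocyte classes, and the vehicle B, fibroblast and smooth muscle classes hold isolated cells near 100 (highest fibroblast 94.6, smooth muscle 89.3).

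Pooled epithelial cells of the THC library had more G2/M transcript than those of the vehicle library, and the same S phase transcript within counting error. The G2/M set stood at 8.10 UMIs per 10000 (2214 UMIs) against 5.49 (1746 UMIs), a log2 ratio of 0.56 (0.47 to 0.65). That interval leaves out the spread between cells, and the 10 richest cells held 60.2% and 67.3% of these UMIs. The S set stood at 3.34 against 3.47 (log2 -0.05, -0.18 to 0.07) and the broad set at 14.3 against 11.6 (log2 0.30). Over all cells of the libraries 3 members were past 1.5-fold higher in the THC library and 0 lower, against 4.04% and 7.32% of all genes. A gene is called past 1.5-fold in either direction. Of the 36 members, 8 were called higher in the THC library and 0 lower, where 5.21% of all 10445 epithelial genes with at least 20 UMIs were called higher and 5.79% lower. The 8 were 7 of the 18 G2/M genes and Tuba1b. Of the G2/M genes 17 were above 0, with a median log2 ratio of 0.55, while 9 of 12 S genes were below 0, with a median of -0.13. The median of all genes was 0.01.

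The G2/M members with intervals farthest above 0 in the pooled epithelium were Cenpa, Plk1, Ccna2 and Ccnb2. Cenpa (ENSMUSG00000029177), the histone that marks the centromere, had 171 THC and 94 vehicle UMIs (62.6 and 29.5 CPM; log2 1.08, 0.71 to 1.46). Plk1 (ENSMUSG00000030867), the kinase that matures the spindle poles, had 51 and 27 UMIs (18.7 and 8.49 CPM; log2 1.14, 0.44 to 1.87). Ccna2 (cyclin A) had 122 and 78 UMIs (44.6 and 24.5 CPM; log2 0.86) and Ccnb2 (a B-type cyclin) 175 and 122 (64.0 and 38.4 CPM; log2 0.74). All 4 intervals lay above 0. Birc5 (survivin), Cdc20, which activates the anaphase-promoting complex, and Cenpf, a kinetochore protein, stood at log2 0.74, 0.77 and 0.71.

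Mki67 (ENSMUSG00000031004) was just under the 1.5-fold line, with 266 and 210 UMIs (97.3 and 66.0 CPM; log2 0.56, 0.29 to 0.83). Cdk1 (ENSMUSG00000019942), the mitotic kinase, had 95 and 83 UMIs (log2 0.41, -0.03 to 0.86), and Ccnb1, its B-type partner, 44 and 36 (log2 0.51, -0.16 to 1.19). Both intervals included 0. Top2a, the topoisomerase that untangles sister chromatids, had 125 and 138 UMIs (45.7 and 43.4 CPM; log2 0.08), and Aurkb was the G2/M gene below 0 (log2 -0.13). Among S genes Pcna (ENSMUSG00000027342) had 132 and 156 UMIs (48.3 and 49.0 CPM; log2 -0.02) and Mcm2, of the replicative helicase, 51 and 61 (log2 -0.04). Every S interval included 0. Of the broad set, Tuba1b (α-tubulin) had 351 and 257 UMIs (128 and 80.8 CPM; log2 0.67).

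The pooled G2/M difference depended on which cells were called epithelial. When the cell cycle genes took part in the clustering, it was 0.20 on the log2 scale, and 2 members were called higher and 3 lower. With cells of under 5% mitochondrial UMIs, 28 THC and 39 vehicle epithelial cells were left, none of them in the undifferentiated class, and it was 1.59 with 16 members higher and 2 lower. Over 9 alternatives it ranged from 0.20 to 1.59 and was above 0 in each.

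**Figure D4:**
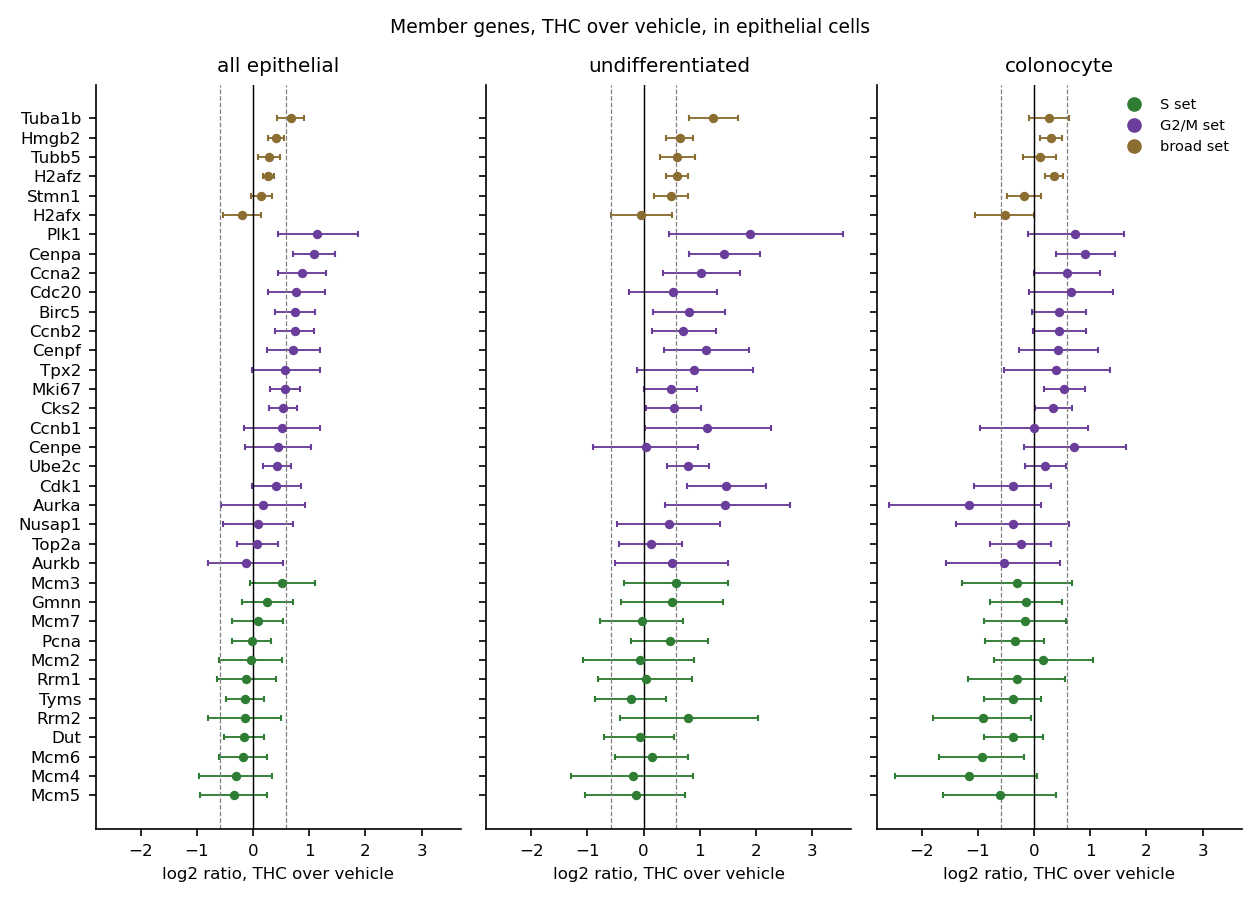
Log2 ratio of THC over vehicle for each member in all epithelial cells, undifferentiated cells and colonocytes, with exact conditional Poisson 95% intervals. Dashed lines mark 1.5-fold. In undifferentiated cells all 18 G2/M points lie above 0, and in colonocytes 11 of 12 S points lie below 0.

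Undifferentiated cells of the THC library held more G2/M transcript, 17.99 against 10.6 UMIs per 10000 (log2 0.77, 0.62 to 0.92), with the S set at 6.81 and 6.33 (log2 0.11, -0.11 to 0.32). The richest THC cell alone held 286 of 795 G2/M UMIs (35.97%), and without the richest cell of each library the levels were 12.5 and 8.15. Members called higher numbered 16 of 36 and lower 0, against 10.2% and 12.5% of all genes of the class, and the count higher was 9 without these cells and 7 with the cell cycle genes in the clustering. Of the G2/M genes 11 of 18 were called higher, and 4 of the 6 broad genes. Cdk1 had 52 UMIs in 30 THC cells and 28 in 76 vehicle cells (118 and 42.5 CPM; log2 1.47, 0.78 to 2.19). Cenpa had 63 and 35 (143 and 53.1 CPM; log2 1.42, and -0.062 with that clustering) and Plk1 15 and 6 (33.9 and 9.11 CPM; log2 1.90, 0.45 to 3.55). Ube2c had 133 and 115 UMIs (log2 0.79) and Tuba1b 114 and 72 (log2 1.24). Mki67 stood at 0.48 and Ccnb1 at 1.12, or -0.78 by the mean of per-cell shares. Top2a (0.13), Pcna (0.46) and Mcm2 (-0.07) had intervals that included 0.

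This class was uneven between the libraries. Of 13 fixed markers 8 were found in at least 10% of its cells, at log2 1 or more above all other cells. Its summed marker level was alike in the libraries (20.4 and 19.0 per 10000, none of 13 at 0 in either). The median depth, however, was 14609 UMIs in THC and 4166.5 in vehicle cells. Under 3000 UMIs lay 33 of 76 vehicle cells and 6 of 30 THC cells. These shallow cells were rich in the RNA Gm26917 (930 and 568 per 10000 in vehicle and THC, against 15.5 and 7.89 in deeper cells) and, in the vehicle library, in replication-dependent histone transcripts (35.9 per 10000 against 2.88). They were also rich in G2/M signal, 13 of 33 (39.4%) in the vehicle and 3 of 6 (50%) in the THC library. Among cells of 3000 UMIs or more, 5 of 24 THC cells (20.8%) and 7 of 43 vehicle cells (16.3%) had G2/M signal. The G2/M levels of these deeper cells were 17.7 and 9.85 per 10000 (log2 0.85, 0.69 to 1.005) and the S levels 6.94 and 6.36 (log2 0.13). The 2 richest deeper cells held 286 and 187 of 763 G2/M UMIs in the THC library, and 179 and 134 of 591 in the vehicle library. The part of the shallow cells and of the richest cells in the difference was not tested. With finer clustering the class kept 33 THC and 46 vehicle cells, and an unnamed cluster of 2 THC and 33 vehicle cells with a median of 2035 UMIs split off. With a stricter mitochondrial limit (10%) or UMI minimum (2500) no cluster kept the name.

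In colonocytes the S and G2/M sets lay on opposite sides. The S set was lower in the THC library, 2.71 against 3.57 UMIs per 10000 (390 and 489 UMIs; log2 -0.40, -0.60 to -0.21), and the G2/M set higher, 8.07 against 6.41 (1163 and 877 UMIs; log2 0.33, 0.20 to 0.46). The G2/M gap lay in 1 of the 2 colonocyte clusters: 7.95 against 3.74 in the one led by Tgm3 and Saa1 (38 and 35 cells), and 8.17 against 8.24 in the one led by Fabp6 and Car1 (34 and 44 cells). Of the 36 members 4 were called higher and 5 lower, against 8.52% and 6.91% of all genes of the class. Of the 12 S genes, 11 were below 0 and 4 were called lower. Mcm6 had 25 UMIs in THC and 45 in vehicle colonocytes (17.3 and 32.9 CPM; log2 -0.92, -1.69 to -0.19). Rrm2, a subunit of ribonucleotide reductase, had 19 and 34 (13.2 and 24.9 CPM; log2 -0.92, -1.81 to -0.06), and stood at 0.19 with the cell cycle genes in the clustering. Of the broad set H2afx, the histone variant phosphorylated at DNA breaks, had 55 and 75 UMIs (log2 -0.52), while H2afz (log2 0.35) and Hmgb2 (0.30) were higher with intervals above 0. Pcna stood at -0.35 and Mcm2 at 0.17, both with intervals that included 0.

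Cenpa had 95 UMIs in THC and 48 in vehicle colonocytes (65.9 and 35.1 CPM; log2 0.91, 0.39 to 1.44), Mki67 167 and 109 (log2 0.54, 0.18 to 0.90) and Cks2 183 and 137 (log2 0.34). Cdk1 (-0.38), Top2a (-0.24) and Ccnb1 (-0.01) had intervals that included 0. The G2/M ratio of colonocytes ranged from -0.23 to 1.51 over 8 alternatives and was below 0 in 2 of them, finer clustering and mitochondrial UMIs under 10%, where 14 and 13 members were called lower. Members called higher numbered 8 without the richest cells and 14 with the cell cycle genes in the clustering. The S ratio was below 0 in all 8, from -1.04 to -0.32. Smooth muscle markers, of which 9 of 10 had a UMI in THC and 7 of 10 in vehicle colonocytes, stood at 8.96 per 10000 in THC and 0.27 in vehicle colonocytes, and colonocyte markers at 122 and 206. Their part in these differences was not tested.

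Goblet cells held little G2/M signal but more of both sets in the THC library. The G2/M set stood at 3.18 against 1.56 UMIs per 10000 (250 and 171 UMIs; log2 1.02, 0.74 to 1.31) and the S set at 2.65 against 1.69 (log2 0.65, 0.35 to 0.94). The richest vehicle cell held 52.0% of the vehicle G2/M UMIs, and without the richest cell of each library the levels were 2.50 and 0.77. Of 24 members with at least 20 UMIs, 12 were called higher and 0 lower, against 8.61% and 8.84% of all genes of the class. With a minimum of 50 UMIs, 3 members were called higher. Ccnb2 had 26 UMIs in THC and 6 in vehicle goblet cells (33.1 and 5.48 CPM; log2 2.59, 1.28 to 4.16), Birc5 20 and 6 (log2 2.21) and Top2a 18 and 6 (log2 2.06). Mcm3 had 15 and 5 (log2 2.06) and Tuba1b 81 and 59 (log2 0.93). Mki67 (0.54), Pcna (0.36), Cdk1 (-0.05) and Mcm2 (-0.33) had intervals that included 0. The G2/M ratio was between 1.01 and 1.70 over 9 alternatives. Colonocyte markers in goblet cells stood at 24.6 per 10000 in the THC library (1 of 15 at 0) and 14.4 in the vehicle library (2 of 15 at 0), and their part in these differences was not tested.

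B cells went the other way. The 37 THC B cells held 24 G2/M UMIs, or 1.98 per 10000 (1.27 to 2.95), and the 72 vehicle B cells 277, or 10.0 (8.88 to 11.3), at similar depth (medians of 3106 and 3151 UMIs). The log2 ratio was -2.34 (-3.01 to -1.74), and -1.42 for the S set. With the cell cycle genes in the clustering, which took 3 vehicle cells out of the class, the ratios were -0.05 and, on the other side, 0.12 for S and 0.41 for the broad set (otherwise -1.02). Of 15 members with at least 20 UMIs, 11 were called lower and 0 higher, against 19.9% and 11.4% of all genes of the class. The count lower was 5 without the richest cells, 3 with a minimum of 50 UMIs, and 0 with 1 higher under that clustering. Mki67 (34 UMIs), Top2a (30), Ube2c (20) and Ccna2 (20) had 0 UMIs in THC B cells. These genes reached the minimum of 20 UMIs through vehicle cells alone, so their call as lower was fixed by the filter. H2afx had 9 UMIs in THC and 105 in vehicle B cells (74.3 and 380 CPM; log2 -2.35, -3.52 to -1.38), and Pcna 6 and 20 (log2 -0.55, interval with 0). Cenpa did not follow the rest, with 18 and 40 UMIs (149 and 145 CPM; log2 0.04).

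The vehicle signal lay in 4 of 72 B cells (5.56%; 1.53 to 13.6), and 0 of 37 THC B cells had it, which allows up to 8.11%. Those 4 cells held 105, 79, 43 and 2 G2/M UMIs. Mef2b, a factor of germinal-centre B cells chosen with Rgs13 after the values were seen, had 37 UMIs in the 4 cells, 4 in the 68 other vehicle B cells and 0 in the 37 THC B cells, and Rgs13 had 19, 4 and 0. Of the 8 fixed germinal-centre markers 5 were at 0 in THC B cells and none in vehicle B cells (0.33 and 4.59 per 10000).

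In T cells, fibroblasts, smooth muscle and plasma cells most G2/M transcript of a library lay in 1 cell. A THC T cell held 47 of 64 G2/M UMIs (73.4%) and 52 S UMIs from all 12 S genes. The T cell levels were 6.58 and 2.82 per 10000 with it (log2 1.22) and 1.98 and 2.49 without the richest cell of each library (log2 -0.33). Of 5 T cell members with at least 20 UMIs, 3 were called higher and 1 lower (12.4% and 16.3% of all genes of the class): Tuba1b (29 and 5 UMIs; log2 2.62), Tubb5 (0.90) and Hmgb2 (0.69) higher and Cenpa lower (-0.60, interval with 0). The richest cell held 62.1% of the THC Tuba1b UMIs.

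A vehicle fibroblast held 154 of 182 G2/M UMIs (84.6%), with all 18 G2/M genes, and kept 9 of 12 fibroblast markers (206 UMIs) and 2 UMIs of pan-epithelial markers. It held every fibroblast UMI of Top2a (28) and Ube2c (22), which were at 0 in THC fibroblasts, and all 10 of Mki67. Stmn1, which unbuilds microtubules, had 11 and 58 UMIs (log2 -1.61), 45 of the 58 in that cell (log2 0.56 without the richest cells), and H2afz stood at log2 -0.31. The G2/M ratio was -2.19 with this cell and 0.16 without the richest cell of each library. Fibroblast members called numbered 1 higher and 4 lower of 13, against 8.7% and 11% of all genes. Of the lower ones, Top2a and Ube2c reached the UMI minimum through the vehicle cell above alone. Their call as lower was thus fixed by that cell, and the count lower is no result about the class. Pcna, with 2 UMIs in that cell, had 33 and 38 UMIs (54.3 and 36.1 CPM; log2 0.59, -0.13 to 1.30).

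A vehicle smooth muscle cell held 171 of 178 G2/M UMIs (96.1%), among them all UMIs of Cenpe (30), Cenpa (22), Cenpf (21) and Tpx2 (20), none of which had a UMI in THC smooth muscle cells. It kept 9 of 10 smooth muscle markers (1551 UMIs), with 1 UMI of pan-epithelial markers. Plasma markers in smooth muscle cells stood at 1.12 per 10000 in the THC library (5 of 9 at 0) and 10.997 in the vehicle library (none of 9 at 0), and their part in the result was not tested. The smooth muscle G2/M ratio was -3.67 with this cell and 0.41 without the richest cell of each library. Members called numbered 1 higher and 8 lower of 12, against 6.04% and 14.6% of all genes. Of these, Cenpe, Cenpa, Cenpf and Tpx2 reached the minimum of 20 UMIs through that cell alone. Their call as lower was thus fixed by it, and the count is no result about the class. Tuba1b (211 and 144 UMIs; log2 0.77, 0.46 to 1.09) and Tubb5 (log2 0.31) were higher, while Hmgb2 had 14 and 53 UMIs (log2 -1.70) and Pcna 12 and 21 (log2 -0.58, interval with 0). Plasma cells held 22 and 38 G2/M UMIs, 90.9% and 94.7% of them in 1 cell of each library. Over all cells outside the epithelium, 1 member was called higher and 16 lower of 33, against 5.33% and 8.5% of all genes. Of the 16, 13 were G2/M genes. Of the 778 vehicle G2/M UMIs, 171 lay in the smooth muscle cell above, 154 in the fibroblast, and 105, 79 and 43 in 3 B cells. Members could thus reach the minimum of 20 UMIs mainly through these cells, and the count is no result about cells outside the epithelium. The G2/M ratio was -1.47 (-1.71 to -1.24). It was 0.28 when the cell cycle genes took part in the clustering, which gathered 12 THC and 28 vehicle cells, 5 of the latter from the B, fibroblast and smooth muscle classes, in a cluster led by histone genes, Mki67 and Ube2c.

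Further cell cycle genes, in 6 lists of 123 genes, were read the same way in pooled epithelium. Of 38 other mitosis genes with at least 20 UMIs, 13 were called higher in the THC library and 1 lower, with a median of 0.42, where 5.21% of all genes were called higher and 5.79% lower. Cdca3, which triggers mitotic entry, had 179 and 96 UMIs (65.5 and 30.2 CPM; log2 1.12), Mad2l1, of the spindle checkpoint, 41 and 21 (log2 1.18), and Kif20a, a kinesin of cytokinesis, 35 and 17 (log2 1.26). Of 27 other replication genes none was called higher and 1 lower, with a median of -0.05. Dnmt1, the maintenance DNA methyltransferase, had 56 and 97 UMIs (log2 -0.57) and Pclaf, a partner of Pcna, 164 and 151 (log2 0.34). In colonocytes alone 10 of 24 replication genes were called lower and none higher, against 6.91% and 8.52% of all genes of the class. Foxm1, which drives the G2/M genes, had 20 and 9 UMIs (log2 1.37, 0.17 to 2.69), and 3 of 13 regulators were called higher, against the same 5.21%.

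None of 8 G1 cyclins and kinases and none of 12 inhibitors passed 1.5-fold in pooled epithelium. Myc had 104 and 166 UMIs (log2 -0.46), Cdkn1a, the p21 inhibitor, 421 and 393 (154 and 124 CPM; log2 0.32, 0.12 to 0.52), Cdkn2b 81 and 65 (log2 0.54) and Btg2, an antiproliferative factor, 3209 and 4904 (log2 -0.39). Within these 3 epithelial classes Cdkn1a was lowest in undifferentiated cells, 33.9 and 65.3 CPM, against 205 and 171 CPM in colonocytes and 128 and 90.5 in goblet cells. Cdkn2b was at 50.6 and 35.8 CPM in colonocytes and had 0 and 3 UMIs in undifferentiated cells. Of 10 replication-dependent histones none was called higher and 3 lower (5.79% of all genes), among them Hist1h1a (13 and 49 UMIs; log2 -1.70) and Hist1h1b (32 and 71; log2 -0.93), with Hist1h2bc at -0.27. The shallow vehicle cells named above held 35.9 UMIs of this list per 10000.

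Epithelial cells with G2/M signal were set against cells with neither signal within each library (21 and 135 THC cells, 29 and 205 vehicle cells). All epithelial classes were pooled, and the class make-up differed. Goblet cells were 2 of 21 THC and 2 of 29 vehicle cells with signal, but 54 of 161 and 86 of 245 epithelial cells. Undifferentiated cells were 8 of 21 and 20 of 29, but 30 of 161 and 76 of 245. The part of this make-up in the differences was not tested. The G2/M and S members chose the cells, so their differences are no result and the S values are a description. Cells with S signal were kept out of the comparison group, so the choice bears on replication genes and histones too. Of the 29 vehicle cells with signal, 13 were shallow undifferentiated cells, a group rich in histone transcripts. The counts of the other lists are thus a description as well. Of 38 other mitosis genes 37 were past 1.5-fold higher in both libraries, of 27 other replication genes 20 and of 10 histones 7, against 9.55% of 10361 genes higher and 10.7% lower. Of the 12 S members, Rrm2 (log2 2.55 THC, 4.43 vehicle), Rrm1 (2.57 and 2.36) and Tyms (1.45 and 2.33) were higher in both, and Mcm2 (0.39 and -0.13), Mcm6 (-0.05 and 0.92) and Pcna (0.13 and 1.11) were not past 1.5-fold in both. None of 7 G1 genes was higher in both, and Myc (-1.09 and -0.60) and Ccnd3 (-1.13 and -0.77), a D-type cyclin, were lower. Among inhibitors, Cdkn2c (3.79 and 2.99), Cdkn2d (2.88 and 2.41) and Cdkn1b (0.91 and 0.83) were higher in the cells with signal of both libraries, while Cdkn2b (-0.94 and -2.15) was lower.

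Outside the lists, the genes furthest above the other cells in both libraries were Ska1, a kinetochore protein (13 against 1 UMIs in THC, 11 against 1 in vehicle cells; log2 6.16 and 6.26), Aspm, a spindle pole protein (log2 5.74 and 6.97), Prr11, Esco2, Sapcd2, Kif4, Neil3, Melk and the histone Hist1h3f. Aspm had 29 UMIs in 21 THC signal cells and 3 in the 135 others, and 18 and 1 in the vehicle library. At the other end, chosen after their values were seen, stood genes of mature cells: the goblet genes Zg16 (2 UMIs against 3853 in THC, 8 against 2682 in vehicle; log2 -8.45 and -5.59) and Clca1 (-8.29 and -4.13), and the bile acid binding protein Fabp6 (-6.40 and -4.23). Few cells with signal were goblet cells, and the part of class make-up in these values was not tested.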

How the data were processed

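Cells of 1 THC and 1 vehicle library were profiled with the 10x Chromium 5′ kit, per the labels' protocols. The deposited values are raw UMI counts per gene and barcode, made by the authors with Cell Ranger 3.0.2, per the file headers; the genome build is not stated in what was used here. Barcodes with at least 1000 UMIs, 200 genes and under 15% mitochondrial UMIs were kept, and 1 doublet call per library was removed (scrublet in scanpy 1.11.5, 0.8% per 1000 cells). Cells were clustered on 2000 variable genes without cell cycle and histone genes (30 principal components, 15 neighbours, Leiden resolution 1). Clusters were named from 24 marker lists (221 genes, at least 3 markers), and 4 THC and 7 vehicle cells were moved to the endothelial class by a rule chosen after seeing the data. Ratios are log2 THC over vehicle for genes with at least 20 UMIs in classes of at least 20 cells per library, with exact conditional Poisson intervals; shares have Clopper-Pearson intervals (scipy 1.17.1). A zero share allows up to 3 counts of the total. Named members are up to 5 per side whose interval bound nearest 0 lies farthest from it, with Mki67, Top2a, Pcna, Ccnb1, Cdk1 and Mcm2 always, and the 3 per set with most UMIs; other lists give up to 3 genes, and cells with signal 10 genes outside the lists. Members and lists were chosen with earlier results of these data known. Filters, scaling, thinning, clustering and the richest cells were varied. The code was tested on simulated data. Some genes that these rules pick are not reported here.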

Additional observations from a re-analysis of the deposited data

Results flagged for a closer look

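The G2/M set lay on opposite sides in different classes, as log2 ratios of THC over vehicle: 0.77 in undifferentiated cells, 0.33 in colonocytes, 1.02 in goblet cells and 1.22 in T cells, against -2.34 in B cells, -2.19 in fibroblasts and -3.67 in smooth muscle. With 1 library per treatment the difference was not tested. The T cell, fibroblast and smooth muscle values turned to the other side without the richest cell of each library. The B cell value was -0.05 with the cell cycle genes in the clustering. The colonocyte value was above 0 in 6 of 8 alternatives, with -0.23 as the lowest.

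Barcodes left out for 15% or more mitochondrial UMIs also held the G2/M set, at 3.03 UMIs per 10000 in the THC library (2.72 to 3.35; 192 barcodes) and 2.38 in the vehicle library (2.11 to 2.68; 208 barcodes). At least 3 G2/M members were found in 19 (9.90%) and 21 (10.1%) of them.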

How the results depend on the processing

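Of 1148 values of 125 results under 15 alternatives, 917 stayed within the limits set for the same result, 218 moved and 13 reversed. With the cell cycle genes in the clustering, a histone and Mki67-led cluster named as epithelium took 3 B cells, 1 fibroblast and 1 smooth muscle cell of the vehicle library. The log2 ratios were then -0.22 (S) and 0.20 (G2/M) in epithelium, with 2 members higher and 3 lower, and 0.28 for G2/M outside it. Also then, B cells stood at 0.12 (S) and 0.41 (broad), fibroblasts at 0.50 and smooth muscle at 1.66 (G2/M), colonocyte Rrm2 at 0.19, fibroblast Stmn1 at 0.44 and undifferentiated Cenpa at -0.062. The vehicle epithelial G2/M level was 7.07 per 10000. With mitochondrial UMIs under 5% the epithelial ratios were 0.17 (S) and 1.59 (G2/M), with 16 members higher and 2 lower, the ratio outside epithelium was -1.16, and the epithelial G2/M levels were 13.4 and 4.43; fewer cells (28 and 39 epithelial) were left. Under 10% the levels were 9.11 and 6.47. Without the richest cells they were 7.15 and 4.97, and the G2/M ratio was -0.33 in T cells, 0.16 in fibroblasts and 0.41 in smooth muscle, with fibroblast Stmn1 at 0.56. By the mean of per-cell shares 2 epithelial members were lower, and undifferentiated Ccnb1 stood at -0.78; the cause was not tested.

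Shares of epithelial cells with G2/M signal were 34.2% (THC) and 19.6% (vehicle) without thinning, 28.0% and 21.2% with at least 1 member, and 8.07% and 6.53% with at least 3. S shares were 44.7% and 31.8%, 19.3% and 26.5%, and 0.62% and 2.45%. In the vehicle library a minimum of 2500 UMIs gave 7.18% (G2/M) and 4.31% (S). Keeping doublet calls gave 4.08% (S) against 7.35% in the main setting, with 245 vehicle epithelial cells in both. The thinning was drawn anew at these 2 settings, and the part of the draw in these shares was not tested. Leaving out undifferentiated cells under 3000 UMIs, chosen after seeing the data, gave 7.55% (G2/M) in the vehicle library. No paired analysis was possible because each treatment had 1 library. Depth limits small classes: 0 of 37 cells allows up to 8.11%.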
